A study of Mus musculus with 74 samples.

Results

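The 91 genes described here encode the proteins of the cytosolic ribosome and their close relatives. They were taken by symbol from a mouse count table of 49480 genes: every symbol that starts with Rpl or Rps followed by a digit or by p, leaving out pseudogene symbols and the Rps6k kinases. Of the 91, 76 are core subunit genes (30 of the small 40S subunit and 46 of the large 60S subunit), 13 are paralogs such as Rps27l and Rpl22l1, and 2 are other proteins that the symbol rule takes in, Rpl7l1 and Rps19bp1. Core subunits named otherwise, such as Rpsa and Rack1, fall outside the rule and are given beside the members.

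The table holds RNA-seq counts of 74 libraries, each made by Smart-seq2, a full-length protocol for small inputs, from 1000 double-sorted CD45+ immune cells of C57BL/6J mice. At 3 or 12 months of age the mice bore tumors of MC38, a colon carcinoma line grown under the skin, which were taken on day 10, and the labels give this tumor protocol for the spleen samples as well. From tumor and from spleen, 5 cell types were sorted: macrophages (CD11b+F4/80+), dendritic cells (CD11b+CD11c+MHCII+), and 3 kinds of TCRb+ cells, namely CD8+ ones (CD8 T cells), CD4+ ones positive for CD25 (regulatory T cells) and CD4+ ones negative for it (conventional CD4 T cells). These make 20 groups of 4 libraries, with 3 libraries in splenic dendritic cells at either age, in tumor dendritic cells at 12 months and in splenic conventional CD4 T cells at 3 months, and 2 in tumor conventional CD4 T cells at 3 months. All libraries came from female mice except 4 of dendritic cells. Splenic dendritic cell replicates 3 and 4, titled 3 months, carry an age tag of 12 months, and were grouped by title.

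A ribosome is built from both subunits, each a shell of proteins around ribosomal RNA, and every protein is needed in about 1 copy per ribosome except those of the stalk. The subunits are assembled in the nucleolus, a process promoted by growth signals and by the transcription factor Myc. Most ribosomal protein messages begin with a C followed by a run of pyrimidines, the 5′ terminal oligopyrimidine tract or TOP, through which their translation follows mTOR signalling. In T cells, ribosome production is known to increase on activation.

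Cd3e, a marker of T cells, ranged from 119 to 265 CPM (counts-per-million: a gene's counts divided by all counts of its library, on the usual scale) over the T cell libraries, against at most 7.21 in macrophages and 3.29 in dendritic cells. Foxp3 reached 354 CPM in conventional CD4 T cells and at least 869 in regulatory T cells. Macrophages and dendritic cells were not separated by every marker: Adgre1 had a median of 556 CPM in macrophages and 113 in dendritic cells, but Mrc1 had 146 and 173. The libraries held between 1652812 and 9115858 counts, and 85 to 90 of the 91 members had a count in any 1 library. All 76 core genes had a count in every library, and Rps12l1 had none in any. Each library pools RNA of sorted cells, so fewer cells expressing a gene and less of its RNA per cell cannot be told apart. The labels do not tie replicates to separate animals, so the p-values measure the spread between these libraries, which may be technical.

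The promoters of 6 members show the sequence around the annotated start at which TOP messages begin. They are the members on which the results below turn: Rpl12 and Rps18, which fell strongly in tumor T cells, Rpl38, which had the largest drop with age in splenic conventional CD4 T cells, Rps27 with its paralog Rps27l, of which 1 rose and the other fell in tumor macrophages, and the paralog Rpl22l1. Each line gives 60 bases before and 20 after the annotated start, 5′ to 3′ on the gene's strand, and capitals mark CTTTCC or CTTTTC.
Rpl12: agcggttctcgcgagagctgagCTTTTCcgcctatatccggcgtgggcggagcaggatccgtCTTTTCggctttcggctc
Rpl38: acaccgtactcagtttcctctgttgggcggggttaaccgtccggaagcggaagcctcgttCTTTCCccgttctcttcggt
Rps18: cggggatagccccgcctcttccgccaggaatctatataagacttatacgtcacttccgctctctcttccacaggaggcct
Rps27: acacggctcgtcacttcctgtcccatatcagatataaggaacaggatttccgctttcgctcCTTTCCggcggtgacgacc
Rps27l: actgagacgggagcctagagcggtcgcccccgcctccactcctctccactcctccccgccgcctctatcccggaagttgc
Rpl22l1: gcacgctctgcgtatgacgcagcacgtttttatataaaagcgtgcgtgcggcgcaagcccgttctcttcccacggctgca
These are RefSeq sequences of GRCm38.p6, at chr2:32961652-32961731 (plus strand), chr11:114668520-114668599 (plus), chr17:33955646-33955725 (minus), chr3:90213629-90213708 (minus), chr9:66946026-66946105 (plus) and chr3:28805448-28805527 (plus) in that order.

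Promoters were found for 66 of the 91 members, 56 of them core genes. CTTTCC or CTTTTC on the gene's strand within 50 bases of the start stood in 26 of the 56 core promoters (46.4%), against 9.35% of all 27025 promoters searched. On the opposite strand the same letters stood in 5.36% of the core promoters and 8.67% of all. CCGGAAG, the letters bound by ETS factors such as GABP, stood on either strand in 23 of 56 core promoters (41.1%) from 250 bases before to 50 after the start, against 9.93% of all. TATAAA within the 50 bases before the start stood in 0 of 56, against 3.15% of all. Among the 6 printed promoters, capitals stand at the start of Rpl12, Rpl38 and Rps27, while Rps18, Rps27l and Rpl22l1 hold neither letter run. Other runs of pyrimidines are not marked. Rps18 reads ctctcttcc from its annotated start, and Rpl22l1 reads ttctcttccc just after its own. The capitals therefore do not tell which messages begin with a TOP.

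The 91 genes took between 0.86% and 11.8% of a library's counts, and the order of the groups followed cell type and tissue. Splenic CD8 and conventional CD4 T cells had the largest shares. In splenic CD8 T cells the share was 6.37%, 4.35%, 5.16% and 6.57% at 3 months and 6.00%, 5.03%, 5.68% and 5.95% at 12 months. Splenic conventional CD4 T cells at 12 months had 4.41%, 4.26%, 3.84% and 4.18%.

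Tumor macrophages and tumor regulatory T cells had the smallest shares. Tumor macrophages had 1.16%, 1.09%, 1.24% and 0.86% at 3 months and 0.96%, 0.92%, 1.22% and 0.93% at 12 months. Tumor regulatory T cells had 0.96%, 0.86%, 1.06% and 1.29% at 3 months and 0.93%, 0.97%, 1.07% and 1.64% at 12 months. Both lay below every splenic regulatory T cell library (2.37% to 3.29%) and every dendritic cell library (2.04% to 3.48%).

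**Figure D1:**
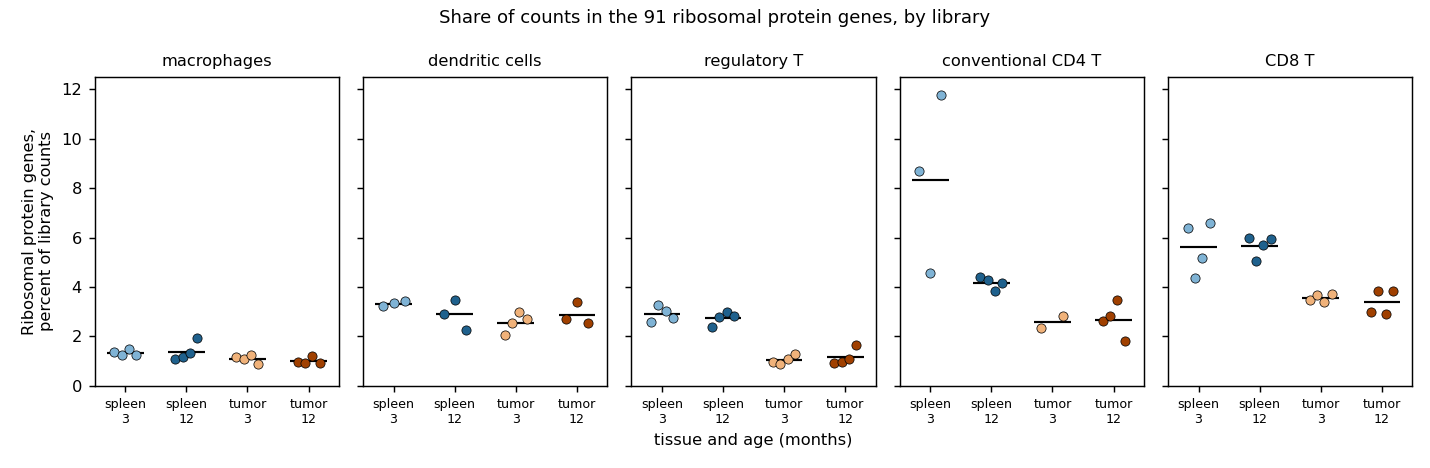
Share of library counts in the 91 ribosomal protein genes (vertical axis, percent) for each of the 74 libraries (points), by cell type (panels) and by tissue and age in months (horizontal axis); short bars are group means. Tumor libraries lie below all splenic libraries of their cell type in the 3 T cell panels, while the macrophage and dendritic cell panels overlap between tissues.

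Group means ran from 1.01 ± 0.14% (SD, n = 4) in tumor macrophages at 12 months to 8.33 ± 3.62% (SD, n = 3) in splenic conventional CD4 T cells at 3 months. Neighbours in this order mostly lay within each other's spread: tumor regulatory T cells at 3 months (1.04 ± 0.18%, SD, n = 4), tumor macrophages at 3 months (1.09 ± 0.16%, SD, n = 4) and tumor regulatory T cells at 12 months (1.16 ± 0.33%, SD, n = 4) were within 1 SD of the lowest group. The splenic macrophage groups followed at 1.33 ± 0.11% and 1.37 ± 0.38% (SD, n = 4 each). From tumor dendritic cells at 3 months (2.56 ± 0.39%, SD, n = 4) to tumor CD8 T cells at 3 months (3.56 ± 0.15%, SD, n = 4) there was no gap. Splenic conventional CD4 T cells at 12 months (4.17 ± 0.24%, SD, n = 4) and splenic CD8 T cells (5.61 ± 1.05% at 3 and 5.66 ± 0.45% at 12 months, SD, n = 4 each) stood above it.

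Averaged over both ages, the tumor share was 1.10% against 2.83% in spleen for regulatory T cells, 2.65% against 5.96% for conventional CD4 T cells and 3.48% against 5.64% for CD8 T cells. It was 1.05% against 1.35% in macrophages and 2.69% against 3.11% in dendritic cells. The 3 T cell types showed no overlap between tissues in any library, and the myeloid types did. These shares are given without a test, since they sum genes chosen with earlier results of these data known.

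The highest group mean belonged to splenic conventional CD4 T cells at 3 months for 71 of the 76 core genes. This ranking rests on replicates 1 and 4 of that group: without them it was highest for 1 core gene, and splenic CD8 T cells for 47 at 12 months and 26 at 3 months. With them, the 5 exceptions were Rpl13a and Rpl4, highest in splenic regulatory T cells at 12 and 3 months, Rps2, highest in splenic CD8 T cells at 3 months, and Rps6 and Rps25, highest there at 12 months. The lowest group was tumor macrophages at 12 months for 40 core genes and tumor regulatory T cells at 3 months for 29. Among paralogs, Rps27l was highest in tumor dendritic cells at 12 months.

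Ribosomes need their proteins in nearly equal amounts. The counts of the core genes, divided by coding length, were spread widely. Rpl41, the shortest ribosomal protein, had the highest mean at 5886 CPM per kb of coding sequence. The small subunit gene Rps3 (3058), the stalk gene Rplp1 (1998) and Rpl8 (1921) were also high. The division uses coding length only, while reads from the untranslated ends of a message may be counted too. That can inflate the level of a gene with few coding bases, such as the 75 of Rpl41. Rpl24 (21.3), Rpl23a (52.5), Rpl13a (83.9) and Rpl35 (140) were lowest. Many of these genes have processed pseudogenes, so a read can match several places in the genome, and how the authors treated such reads is not given in the sources used here.

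Shared sequence moved with the level. All stretches of 36 bases in the coding sequence also occurred in a transcript of another gene for 31 of the 76 core genes, and at least 50% of them did for 71. Among the 5 with less were Rpl8 (10.5%), Rps3 (14.8%), Rpl4 (32.1%) and Rpl22 (47.9%). The median level of the 5 was 1921 CPM per kb, against 369 for the 31 whose coding sequence was wholly shared. Across the 76 genes the level and the shared percentage had a Pearson r of -0.495 and a Spearman rho of -0.495, a description over genes that share the same libraries.

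**Figure D2:**
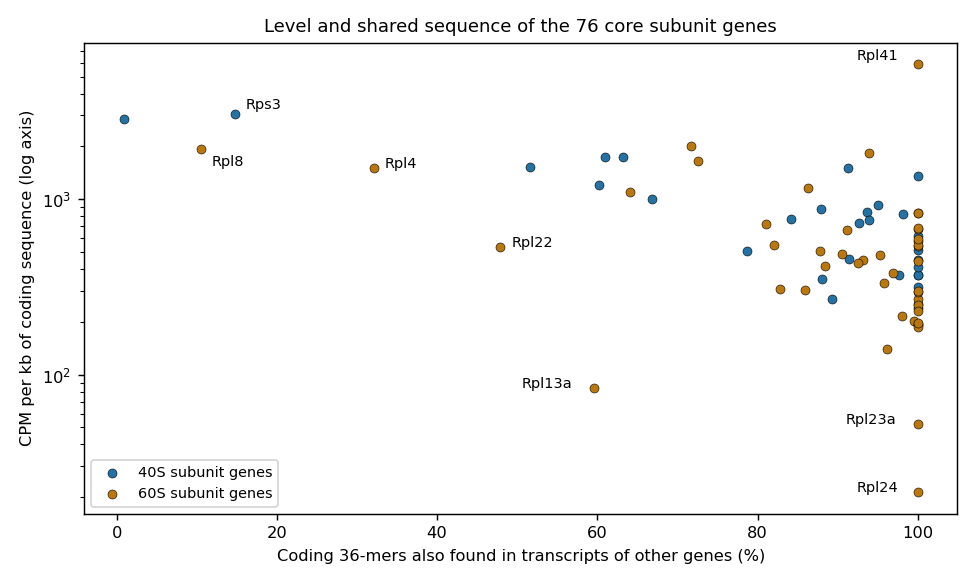
Mean level of each of the 76 core subunit genes over all libraries (vertical axis, CPM per kb of coding sequence, log axis) against the percentage of its coding 36-base stretches that occur in transcripts of other genes (horizontal axis); colors mark the subunit. Rps3 and Rpl8, which share little, lie near the top, and Rpl24 and Rpl23a lie lowest at the right.

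The table also lists 504 genes that share at least 20% of such stretches with a member, mostly pseudogenes. These copies took only 0.0423% to 0.217% of a library's counts, but for single members their part was large. Of the counts of a member and its copies together, the copies held 57.5% for Rpl23a, 54.7% for Rpl29, 32.5% for Rpl21 and 24% for Rps26. Levels of these members are therefore uncertain. Each member's counts were also summed with those of its copies. The tumor-against-spleen test described below then called 77 members in regulatory, 79 in conventional CD4 and 69 in CD8 T cells, in either direction. It called 17 each in macrophages and dendritic cells. In the fits without summing, 53.5%, 27.2%, 42.1%, 51.7% and 47.3% of all genes were called in these types, in the same order.

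In regulatory T cells the ribosomal protein genes fell in the tumor almost without exception. Of 84 members tested, 77 fell and 0 rose (edgeR, adjusted p under 0.05), with a median log2 fold change of -1.09 against -0.05 over all genes. The background was high, with 53.5% of all genes called and 27.6% called lower. In 67 of the 84 every tumor library lay below every splenic one, a pattern found for 15.8% of all genes tested. The 40S genes (29 of 30 fell, median -1.22) and the 60S genes (45 of 46, median -1.07) moved alike.

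The stalk of the large subunit, which recruits the elongation factors, shows the change in single genes. Rplp0, the stalk base and a common reference gene, had 1525, 1778 and 1986 CPM as lowest, median and highest of the 8 splenic libraries and 605, 670 and 1073 in the 8 tumor libraries. The tissues did not overlap, and the log2 fold change was -1.01 (SE 0.12, edgeR adjusted p 2.9e-07). Its partners Rplp1 (-1.10, SE 0.13, edgeR adjusted p 5.4e-07) and Rplp2 (-1.0, SE 0.17, edgeR adjusted p 4.4e-05) fell by similar amounts.

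Rpl12, which sits at the foot of the stalk, fell further. Its splenic regulatory T cell libraries had 231, 316 and 345 CPM (lowest, median, highest), and its tumor libraries 78.6, 83.3 and 137. No tumor library reached the lowest splenic one, and the log2 fold change was -1.55 (SE 0.11, edgeR adjusted p 3.4e-10). Rpl10a, a 60S protein near the exit site for transfer RNA, had the largest drop of the members with at least 10 CPM, at -1.63 (SE 0.15, edgeR adjusted p 8.6e-09).

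In the small subunit, Rps19, whose human counterpart is mutated in Diamond-Blackfan anemia, had 196, 295 and 305 CPM in spleen and 57.5, 69.7 and 149 in tumor (lowest, median, highest). These ranges did not overlap, with a log2 fold change of -1.56 (SE 0.16, edgeR adjusted p 8.2e-08). Rps3, at the messenger RNA entry channel and with little shared sequence, had 1964, 2269 and 2495 CPM in spleen against 857, 960 and 1286 in tumor. It fell by 0.97 on the log2 scale (SE 0.09, edgeR adjusted p 6.8e-09). Rpl13a (-0.82, edgeR adjusted p 1.1e-04) and Rps2, with 89.1, 263 and 611 CPM in spleen and 44.9, 179 and 346 in tumor (-0.66, SE 0.44, edgeR adjusted p 0.23), were less low in the tumor, and Rps2 did not pass the test.

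Conventional CD4 T cells showed the same direction. Of 84 members, 78 fell and 0 rose by edgeR, with a median of -1.12 against 0.04 over all genes and a background of 27.2% called and 11.2% called lower. The size of the change rests in part on the 3-month spleen libraries described further below. Without 2 of them, replicates 1 and 4, 49 members fell with a median of -0.61, and within the 12-month mice alone 14 fell with a median of -0.52. The share of all genes called lower in these refits is not reported here, so these counts cannot be set against it. Every tumor library lay below every splenic library for 41 members, against 4.52% of all genes tested. The 4 regulatory T cell markers, none of them at 0 in any library, summed to 1026 to 2580 CPM in tumor libraries of this sort and to 187 to 1176 CPM in splenic ones, against 2949 or more in sorted regulatory T cells, and their part in the result was not tested.

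Rpl36a had the largest drop of the members with at least 10 CPM in conventional CD4 T cells, at -1.67 (SE 0.28, edgeR adjusted p 1.4e-04). Rps20 (-1.61) and Rps19 (-1.59) were also among the lowest. Rpl12 had 687, 852 and 1900 CPM in the 7 splenic libraries and 256, 345 and 511 in the 6 of the tumor, without overlap. Its log2 fold change was -1.55 (SE 0.19, edgeR adjusted p 4.4e-07). Rplp0 had 1653, 2306 and 6157 CPM in spleen against 862, 1181 and 1655 in tumor, so that the highest tumor library just reached the lowest splenic one (-1.19, SE 0.20, edgeR adjusted p 6.7e-05).

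In CD8 T cells 69 of 86 members fell and 1, the paralog Rps27l, rose by edgeR, with a median of -0.58 against -0.01 over all genes. The background was 42.1% called, 22.5% higher and 19.6% lower. In 34 members no tumor library reached a splenic one, against 7.02% of all genes. The 40S genes fell in 29 of 30 cases (median -0.67) and the 60S genes in 37 of 46 (median -0.53).

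Rpl12 had the largest drop in CD8 T cells among members with at least 10 CPM. It had 822, 1053 and 1364 CPM in spleen and 374, 439 and 627 in tumor (lowest, median, highest). The ranges lay apart, and the log2 fold change was -1.08 (SE 0.12, edgeR adjusted p 6.0e-08). Rps19 (-0.96, edgeR adjusted p 9.6e-06), Rplp1 (-0.95, edgeR adjusted p 1.3e-05) and Rps3a1 (-0.86, edgeR adjusted p 5.2e-08) followed. Rplp0, with 2160 to 3601 CPM in spleen and 1407 to 2174 in tumor, overlapped in the extreme libraries and fell by 0.59 on the log2 scale (SE 0.11, edgeR adjusted p 1.3e-04). Rpl13a had 55.8 to 81.2 CPM in spleen and 51.5 to 67.0 in tumor, and its change of -0.04 did not pass (edgeR adjusted p 0.78).

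The lowered genes were largely shared between the 3 T cell types. Of the 84 members tested in all 3, 69 fell in each, 66 of them core genes. The 10 core genes that missed the threshold in at least 1 type were Rpl7a, Rpl13a, Rpl24, Rpl27, Rpl34, Rpl36, Rpl37, Rpl38, Rpl41 and Rps2. The 5 core genes with the least shared sequence (among them Rps3, Rpl4, Rpl8 and Rpl22) fell in all 3 types, with medians of -1.25 in regulatory, -1.04 in conventional CD4 and -0.62 in CD8 T cells. The 3 types were sorted from the same tissues, and no test of the overlap was made. Markers of macrophages stayed low in these sorts, with all 8 genes together at most 52.5 CPM in any T cell library. The 8 B cell markers were at most 130 CPM, lower in tumor than in spleen in CD8 (13.7 to 35.6 against 60.5 to 130) and regulatory T cells (20.6 to 37.3 against 65.7 to 118). The 6 plasma cell markers were higher in tumor regulatory T cells (479 to 616 CPM against 93.1 to 250), with Xbp1 and Prdm1 never at 0 and the median of Sdc1, Mzb1 and Tnfrsf17 at 0. The part of B and plasma cells in the result was not tested.

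**Figure D3:**
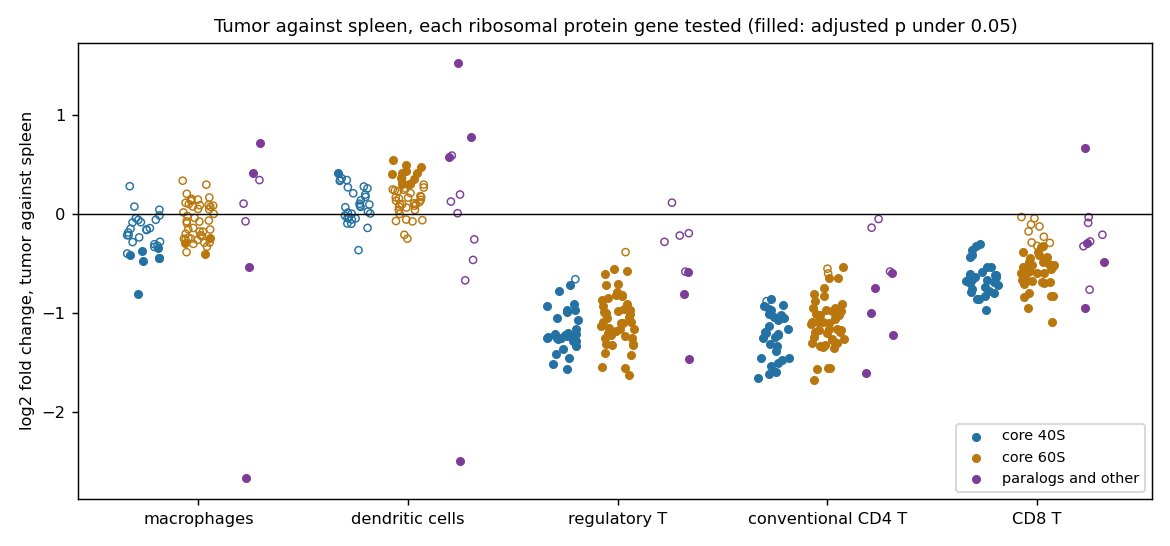
Log2 fold change, tumor against spleen (vertical axis), of every ribosomal protein gene tested in each of the 5 cell types (horizontal axis), scaled by TMM; points are genes, colored by class, and filled points passed edgeR at an adjusted p under 0.05. Nearly all genes lie below 0 in the T cell types (medians -1.09, -1.12 and -0.58); macrophage genes have a median of -0.15, and dendritic cell genes have one of 0.14 that turns to -0.17 when libraries are scaled by their totals alone.

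Macrophages and dendritic cells depended on the scaling. TMM, which scales libraries by the bulk of genes, gave higher factors in spleen than in tumor (medians 1.09 against 0.931 in macrophages, 1.13 against 0.904 in dendritic cells), so a lower CPM in tumor could become a higher scaled level. With library totals in place of TMM, the median of all genes moved from -0.06 to -0.27 in macrophages, from -0.05 to -0.37 in dendritic cells and from -0.05 to -0.29 in regulatory T cells. It moved from -0.01 to -0.10 in CD8 T cells and from 0.04 to -0.005 in conventional CD4 T cells. Under totals 79 members were lower in regulatory, 79 in conventional CD4 and 73 in CD8 T cells, at medians of -1.33, -1.14 and -0.66, where 39.6%, 12.1% and 24.2% of all genes were lower.

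In macrophages 12 of 83 members fell and 2 rose by edgeR with TMM (median -0.15, background 51.7% called, 27.8% lower and 23.9% higher), so the share called was below that of all genes. With totals alone 44 fell (53% of the members, against 36.7% of all genes) and 1 rose (median -0.36, against -0.27 over all genes). Of the 12, 7 were 40S genes. Among the 12 was Rpl3l, a gene of very low counts that passed the low-count filter through the splenic libraries. Leaving out 1 library at a time gave 8 to 19 members called in all, and the 3-month mice alone gave 3. Rps27, described below with its paralog, fell most. Rps9, a small subunit protein that guards decoding accuracy, had 508, 689 and 796 CPM in the 8 splenic and 347, 410 and 506 in the 8 tumor libraries, just without overlap (-0.47, SE 0.11, edgeR adjusted p 0.0012). Every tumor library lay below every splenic one for 6 members, among them Rpl7, Rpl13a, Rps3a1, Rps9 and Rps27, against 15.1% of all genes.

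Rps27a, which is made as a fusion with ubiquitin, fell by 0.44 in macrophages (edgeR adjusted p 0.0092). The stalk genes did not pass there: Rplp0 had 670, 730 and 1081 CPM in spleen and 539, 633 and 776 in tumor (-0.07, SE 0.11, edgeR adjusted p 0.66). Rpl7l1, a relative of Rpl7, rose by 0.42 (SE 0.12, edgeR adjusted p 0.0064), but with totals alone its change was 0.20 and missed the threshold (edgeR adjusted p 0.18). Neutrophil markers moved with these tissues: the 8 genes summed to 3761 to 39268 CPM in splenic and 24.3 to 787 in tumor macrophage libraries. The 8 B cell markers summed to 782 to 3222 CPM in spleen against 9.46 to 45.0 in tumor, and the part of either in the result was not tested.

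In dendritic cells 15 of 87 members rose and 1, Rpl39l, fell by edgeR with TMM (median 0.14, background 47.3% called, 24.0% higher and 23.3% lower), again a smaller share than among all genes. With totals alone the count reversed to 1 higher, Rps27l, and 18 lower (20.7% of the members, against 36.8% of all genes), with a median of -0.17 against -0.37 over all genes. Of the 15, 11 were 60S genes and 1 a 40S gene. Leaving out 1 library at a time gave 5 to 26 members called in all, the 3-month mice alone gave 3, and leaving out both libraries whose title and age tag differ gave 4. Rpl41 had 317, 431 and 505 CPM in the 6 splenic and 388, 525 and 566 in the 7 tumor libraries, with overlap, and rose by 0.55 (SE 0.12, edgeR adjusted p 0.0021). Under totals this was 0.23 and did not pass (edgeR adjusted p 0.13).

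Rpl12 went from 209, 317 and 380 CPM in splenic to 260, 291 and 413 in tumor dendritic cells, which overlap nearly in full. TMM made this a rise of 0.35 (SE 0.12, edgeR adjusted p 0.027), and library totals 0.04 (edgeR adjusted p 0.82). Rpl13a and Rpl4 were core genes for which all tumor dendritic cell libraries lay below all splenic ones in CPM. For Rpl13a these were 37.4, 45.2 and 50.9 CPM in spleen against 26.1, 30.5 and 33.7 in tumor, a change of -0.25 on the TMM scale that did not pass (edgeR adjusted p 0.13). In all, 3 members lay below in this way, against 18.6% of all genes, and 1, Rps27l, above, against 8.24%.

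Markers of other cells moved with the dendritic cell libraries. The 8 macrophage markers summed to 550 to 740 CPM in spleen and 2594 to 11921 in tumor, highest in replicate 2 of both ages (11548 and 11921), and Mrc1 was at 0 in 1 library. The 8 B cell markers summed to 637 to 3852 CPM in spleen and 14.9 to 39.7 in tumor. Without both tumor libraries richest in macrophage markers, 29 members rose and 0 fell (median 0.24, TMM scale), where 22.6% of all genes rose and 22.6% fell. The part of B cells in the result was not tested.

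The paralogs Rps27 and Rps27l encode nearly the same small subunit protein, and Rps27l is known as a target of p53. Rps27 lies on chromosome 3 (90212522 to 90213651, minus strand, mm10) and Rps27l on chromosome 9 (66946086 to 66949516, plus strand). Both have a coding sequence of 252 bases, of which 100% of 36-base stretches of Rps27 and 58.1% of Rps27l occur in other genes. In macrophages and CD8 T cells Rps27l rose in the tumor where Rps27 fell.

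In dendritic cells Rps27l had 35.2, 60 and 80.7 CPM (lowest, median, highest) in spleen and 104, 126 and 182 in tumor. Every tumor library was above every splenic one, and the log2 fold change was 1.52 (SE 0.16, edgeR adjusted p 2.3e-06), the largest rise of any member with at least 10 CPM. It remained past the threshold with totals alone, at 1.2 (edgeR adjusted p 1.9e-05). Rps27 in the same libraries had 208, 342 and 398 CPM in spleen and 122, 190 and 294 in tumor. Its change did not pass with TMM (-0.36, SE 0.18, edgeR adjusted p 0.11) and was -0.68 with totals alone (edgeR adjusted p 0.0067).

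In macrophages Rps27l had 15.7, 20.2 and 33.2 CPM in spleen against 23.8, 33.8 and 39.4 in tumor, overlapping, and rose by 0.71 (SE 0.18, edgeR adjusted p 0.0021). At 12 months alone this was 0.54 and did not pass (edgeR adjusted p 0.10). Rps27 had 69.4, 86.9 and 141 CPM in spleen and 25.8, 52.0 and 62.9 in tumor, without overlap, and fell by 0.80 (SE 0.18, edgeR adjusted p 0.0010; -0.52 and 0.12 at 3 months alone). Both calls held with totals alone, at 0.50 for Rps27l (edgeR adjusted p 0.027) and -1.02 for Rps27.

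In CD8 T cells Rps27l had 22.5, 34.8 and 57.7 CPM in spleen and 36, 48.1 and 91.5 in tumor, and rose by 0.67 (SE 0.19, edgeR adjusted p 0.0077). At 12 months alone it was 0.47 and did not pass (edgeR adjusted p 0.22). Rps27 fell in CD8 T cells (-0.62), conventional CD4 T cells (-1.13) and regulatory T cells (-1.16, edgeR adjusted p 7.9e-08). Rps27l did not pass in regulatory T cells (0.12, SE 0.20, edgeR adjusted p 0.65; -0.12 with totals alone) or in conventional CD4 T cells (-0.14, SE 0.26, edgeR adjusted p 0.75).

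As a percentage of the counts of both genes, which needs no scaling between libraries, Rps27l made up 11.8% to 18.9% in splenic and 35.1% to 47.5% in tumor dendritic cells. In macrophages it made up 14.3% to 24.5% and 32.5% to 50.6%, in regulatory T cells 8.59% to 12.9% and 16.4% to 30.4%, and in CD8 T cells 3.64% to 6.15% and 7.38% to 14.9%. In these 4 cell types no tumor library overlapped a splenic one. In conventional CD4 T cells the ranges, 3.02% to 6.93% in spleen and 6.12% to 10.4% in tumor, overlapped at their ends.

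**Figure D4:**
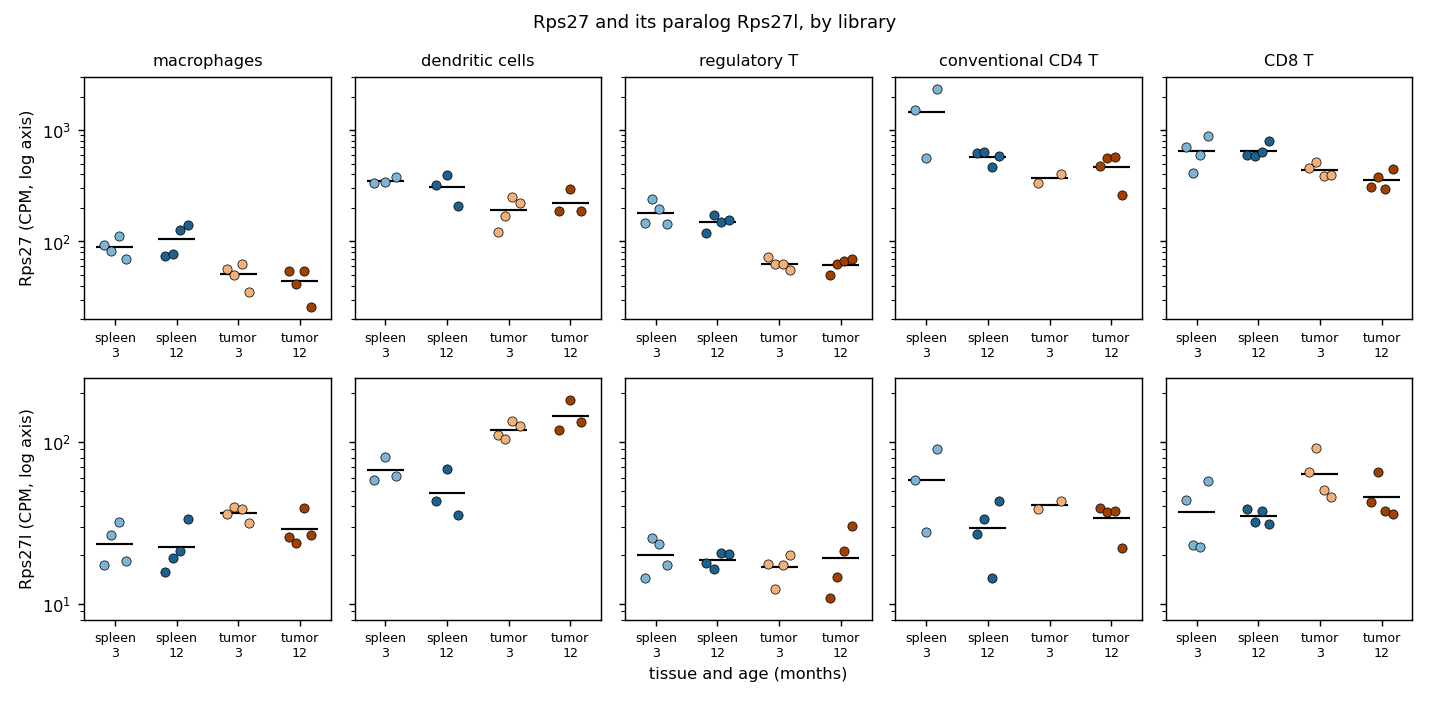
CPM (vertical axis, log axis) of Rps27 (upper row) and its paralog Rps27l (lower row) in every library (points), by cell type (columns) and by tissue and age in months (horizontal axis); short bars are group means. In dendritic cells all tumor libraries lie above all splenic ones for Rps27l (104 to 182 against 35.2 to 80.7 CPM), while Rps27 in macrophages lies lower in all tumor libraries (25.8 to 62.9 against 69.4 to 141 CPM).

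The balance of another pair, Rpl36a and Rpl36al, also differed between tissues. Rpl36a, an X-linked 60S gene, had in regulatory T cells 40.6, 52.6 and 80.9 CPM in spleen and 10.6, 14.3 and 25.7 in tumor, without overlap, and fell by 1.55 (SE 0.18, edgeR adjusted p 3.3e-07). Rpl36al, its autosomal copy, had 40.3, 47.6 and 69.0 CPM in spleen and 23.6, 34.5 and 52.3 in tumor, overlapping (-0.28, edgeR adjusted p 0.17). Under totals alone Rpl36al passed, at -0.52 (edgeR adjusted p 0.012). The share of Rpl36al in the pair was 44.7% to 54.1% in splenic and 62.9% to 72.6% in tumor regulatory T cells, 38.0% to 51.2% and 54.4% to 65.8% in CD8 T cells, and 42.8% to 60.1% and 61.0% to 65.3% in conventional CD4 T cells. None of these ranges overlapped, nor did those of dendritic cells (55.7% to 61.3% and 62.4% to 69.8%), while those of macrophages did. Since 100% of the 36-base stretches of Rpl36a and 87.3% of those of Rpl36al occur elsewhere, the counts of this pair depend on how shared reads were assigned.

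Rpl22 and Rpl22l1, a pair known in T cell development, fell together. Rpl22l1 fell in regulatory T cells (-0.58, edgeR adjusted p 0.0039), conventional CD4 T cells (-1.0, edgeR adjusted p 0.0018), CD8 T cells (-0.49, edgeR adjusted p 0.0023) and macrophages (-0.54, SE 0.20, edgeR adjusted p 0.029). Rpl22 fell in the 3 T cell types (-1.31, -1.04 and -0.44 in that order) and not in macrophages (0.02). Only regulatory T cells separated the tissues by the share of Rpl22l1 in the pair, with 17.5% to 22.7% in spleen and 26.8% to 34.6% in tumor.

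Other paralogs were low. Rpl3l, the heart and muscle form of Rpl3, had 1.18 to 3.82 CPM in splenic macrophages and 0 to 0.959 in tumor macrophages, and fell by 2.66 (SE 0.67, edgeR adjusted p 0.0025). It passed the low-count filter through the splenic libraries, where it is high, and was filtered out between ages in tumor macrophages. Its test is therefore not independent of that filter. Rpl39l, known from testis, had counts in 50 of the 74 libraries, and fell in dendritic cells by 2.5 (SE 0.81, edgeR adjusted p 0.020). Rpl10l had counts in 8. Rps19bp1, which binds Rps19 and is no ribosomal protein, rose in dendritic cells by 0.78 (SE 0.20, edgeR adjusted p 0.0061), but was 0.46 with totals alone (edgeR adjusted p 0.075).

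The other genes of the ribosome pathway moved with the members in T cells. Of the core subunits outside the symbol rule, Rack1 and Rpsa fell in regulatory T cells (-1.10 and -0.70), in conventional CD4 T cells (-0.85 and -1.0) and in CD8 T cells (-0.56 and -0.51). Of 32 genes of ribosome assembly in the nucleolus, 30 fell in regulatory T cells (median -1.13), 25 in conventional CD4 T cells (median -0.99) and 20 in CD8 T cells (median -0.44), and 0 rose. These were 93.8%, 78.1% and 62.5% of the list, against 27.6%, 11.2% and 19.6% of all genes called lower. Nop56, a core protein of the complexes that methylate ribosomal RNA, fell by 1.51 (SE 0.12, edgeR adjusted p 1.5e-09) in regulatory T cells. Its partner Nop58 fell by 0.99 (edgeR adjusted p 6.8e-06) in conventional CD4 T cells, and Gnl3, nucleostemin, fell by 1.0 (edgeR adjusted p 8.9e-08) in CD8 T cells.

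In macrophages 11 of 31 assembly genes rose with TMM (35.5%, against 23.9% of all genes) and 3 fell (median 0.26). Heatr1 had 0.96, and totals alone gave 5 and 4 (median 0.04). In dendritic cells 7 of 32 rose (21.9%, near the 24.0% of all genes) and 1 fell (median 0.15), which reversed to 2 and 8 with totals alone (median -0.17). Myc, named after its values were seen, fell in regulatory (-2.13, SE 0.32, edgeR adjusted p 4.5e-05), conventional CD4 (-1.52) and CD8 T cells (-0.80). It rose in dendritic cells (1.17, SE 0.19, edgeR adjusted p 1.2e-04; 0.86 with totals alone) and macrophages (1.04, SE 0.16, edgeR adjusted p 1.7e-05; 0.83).

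Translation factors with TOP messages, 18 genes, fell in 16 cases in regulatory T cells (median -0.70), 13 in conventional CD4 T cells (median -0.62) and 8 in CD8 T cells (median -0.20), with 0 rising. These were 88.9%, 72.2% and 44.4% of the list, against 27.6%, 11.2% and 19.6% of all genes called lower. Eif4b, a helicase cofactor, fell by 1.22 (edgeR adjusted p 3.8e-10) in regulatory T cells, and Eef1g, of the elongation factor complex, by 1.09 (edgeR adjusted p 2.5e-06) in conventional CD4 T cells. In macrophages 1 rose and 3 fell (median 0.01), where 23.9% of all genes rose and 27.8% fell. With totals alone it was 0 and 7 (median -0.21). In dendritic cells 4 rose (22.2%, near the 24.0% of all genes) and 1 fell (median 0.15; 0 and 5 with totals alone, median -0.16).

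The proteins of the mitochondrial ribosome are made from a separate set of nuclear genes. They fell in 36 of 76 cases (47.4%, against 27.6% of all genes) and rose in 5 in regulatory T cells (median -0.32), and fell in 33 (43.4%, against 11.2%) and rose in 1 in conventional CD4 T cells (median -0.54). In CD8 T cells 14 rose (18.4%) and 6 fell (7.89%), below the 22.5% and 19.6% of all genes (median -0.00; 9 and 12 with totals alone). In macrophages 31 of 77 rose (40.3%, against 23.9% of all genes) and 2 fell (median 0.33), and with totals alone 15 and 7 (median 0.12). In dendritic cells 41 of 77 rose (53.2%, against 24.0%) and 0 fell (median 0.43), and with totals alone 12 and 3 (median 0.11).

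Small subunits of the respiratory chain are 27 genes with short messages like those of the ribosome. In CD8 T cells 16 rose and 0 fell (median 0.36; 13 and 0 with totals alone), and in dendritic cells 20 rose and 1 fell (median 0.59; 11 and 2 with totals alone). In macrophages 9 rose and 2 fell (median 0.28; 1 and 3 with totals alone). In regulatory T cells it was 5 and 2 (median 0.17; 2 and 4 with totals alone, median -0.07) and in conventional CD4 T cells 0 and 2 (median -0.35 under TMM). Of all genes under TMM, 22.5% rose and 19.6% fell in CD8 T cells. These shares were 24.0% and 23.3% in dendritic cells and 23.9% and 27.8% in macrophages. In regulatory T cells 53.5% of all genes were called in either direction, and in conventional CD4 T cells 27.2%, larger parts than among the 27. The counts with totals alone are given without a share of all genes.

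The difference between cell types was tested in 1 fit of all 74 libraries, a comparison added after the data were seen. The mean tumor-against-spleen change of the 3 T cell types was below the mean change of both myeloid types for 80 of 89 members. It was above that mean for 0, and the median difference was -0.93 against 0.24 over all genes. The background was 35.8% called, 15.5% lower and 20.4% higher. With totals alone 74 were lower (median -0.74, where 11.4% of all genes were lower). Rpl12 led with a difference of -1.64 (SE 0.14, edgeR adjusted p 2.1e-16), followed by Rps18 (-1.59, SE 0.20, edgeR adjusted p 3.3e-09) and Rpl10a (-1.57).

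Rplp0 differed by -1.0 (SE 0.13, edgeR adjusted p 5.2e-09) and Rps27l by -0.95 (SE 0.20, edgeR adjusted p 6.8e-05). Rps27, low in tumor macrophages too, did not pass (-0.44, SE 0.18, edgeR adjusted p 0.057), nor did Rpl13a (-0.24, edgeR adjusted p 0.14). Regulatory T cells changed more than CD8 T cells for 16 members and less for 0 (median -0.49, background 10.4% called, 5.66% lower and 4.79% higher). Among them was Rpl22 (-0.84, edgeR adjusted p 0.0018). Leaving out each replicate number in turn changed the 16 to between 0 and 56, without replicate numbers 2 and 4, and to 9 without 1 or 3. Dendritic cells changed differently from macrophages for 3 members, Rpl3l (5.63, SE 1.43), Rpl10 (0.53) and Rps9 (0.56, edgeR adjusted p 0.018), all in the higher direction. This was a smaller part than the 18.7% of all genes called (12.1% higher, 6.56% lower). Rpl3l had very low counts and was filtered out of the fits of dendritic cells alone. Its difference therefore rests on splenic macrophages, where it is high. Without replicate number 1 the count of members was 1, and without replicate number 3 it was 0.

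Library make-up moved with cell type, which bears on any such difference. The 13 core genes with more than 700 coding bases held 42.2% to 51.7% of the core counts in the macrophage and regulatory T cell libraries and 29.1% to 41.3% in the others. The 25 with fewer than 400 bases held 11.3% to 15.2% against 15.3% to 23.0%. Genes encoded in the mitochondrial genome took 0.82% to 2.01% of the counts in the first set and 3.16% to 11.2% in the second. The 2 sets did not overlap in any of these, and cell type and this make-up cannot be told apart across cell types. Within a cell type, tumor and spleen libraries belong to the same set, but in some types the mitochondrial share still moved with tissue. It was 1.63% to 2.01% in splenic and 0.865% to 1.69% in tumor regulatory T cells. In dendritic cells it was 5.48% to 9.39% and 3.16% to 5.80%, and in CD8 T cells 7.73% to 11.2% and 5.22% to 9.26%. The mitochondrial share overlapped nearly in full in macrophages (0.82% to 1.47% in spleen, 0.88% to 1.18% in tumor). The same held for conventional CD4 T cells (5.14% to 10.0% and 5.06% to 10.9%). The part of the mitochondrial share in the tumor-against-spleen changes of single members was not tested. Out of counts outside those genes, the ribosomal protein share was 2.41% to 3.35% in splenic and 0.869% to 1.67% in tumor regulatory T cells and 4.80% to 7.12% and 3.10% to 4.19% in CD8 T cells, without overlap in either.

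With age, the members changed in 1 comparison only. In splenic conventional CD4 T cells 67 of 84 members were lower at 12 than at 3 months by edgeR and 0 higher, with a median of -1.23 against 0.002 over all genes, where 3.92% of all genes were called and 1.96% called lower. This rests on 2 of the 3 libraries at 3 months. The median over the 76 core genes was 745, 399 and 967 CPM in replicates 1, 3 and 4 at 3 months and 367, 355, 321 and 358 CPM at 12 months. Replicate 3 lay next to the 12-month libraries, and replicates 1 and 4 lay far above.

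Without replicates 1 and 4 of 3 months, 0 members passed by edgeR, 3 had an unadjusted p under 0.05, and the median was -0.18. Leaving out single libraries of the 7 gave between 2 and 79 members: 2 without replicate 1 and 6 without replicate 4 of 3 months, and 19, 3, 3 and 8 without replicates 1 to 4 of 12 months. DESeq2 called 77, and library totals without TMM 51. Replicate 4 also held 616 CPM over 6 plasma cell markers, against 43.3 to 132 in the other splenic libraries, and in replicates 1 and 4 the T cell markers summed to 6529 and 6523 CPM against 4491 to 5104. The 4 regulatory T cell markers (Foxp3, Il2ra, Ikzf2 and Ctla4) ran the other way, at 187 and 228 CPM in replicates 1 and 4, 591 in replicate 3 and 855 to 1176 at 12 months. The part of these markers in the result was not tested.

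Within this comparison the short 60S protein Rpl38 had the lowest fold change, -1.99 (SE 0.38, edgeR adjusted p 0.0097), followed by Rps28 (-1.98), the processed copy Rps27rt (-1.87) and the zinc-binding Rps29 (-1.79, edgeR adjusted p 0.014). Rplp0 had 4959, 2357 and 6157 CPM in replicates 1, 3 and 4 at 3 months and 2306, 1653, 1849 and 2055 at 12 months. The groups did not overlap, with the highest 12-month library close to replicate 3, and the change was -1.40 (SE 0.29, edgeR adjusted p 0.014). Rps6, the target of the S6 kinases, had 722, 510 and 586 CPM against 478, 471, 458 and 438. The groups did not overlap, yet the change of -0.58 did not pass (edgeR adjusted p 0.12).

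Rps2 showed no such drop, with 196, 154 and 257 CPM at 3 months and 158, 283, 306 and 201 at 12 months (0.04, edgeR adjusted p 0.96). By class, 26 of 30 40S genes, 39 of 46 60S genes and 2 of the 8 other members tested fell. Of the accompanying lists, 11 of the 27 respiratory chain subunits fell (median -0.97) and 9 mitochondrial ribosomal genes did (median -0.74). The counts were 4 for translation factors (median -0.62) and 0 for assembly genes (median -0.21). In this fit, which includes replicates 1 and 4 of 3 months, 1.96% of all genes were called lower.

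**Figure D5:**
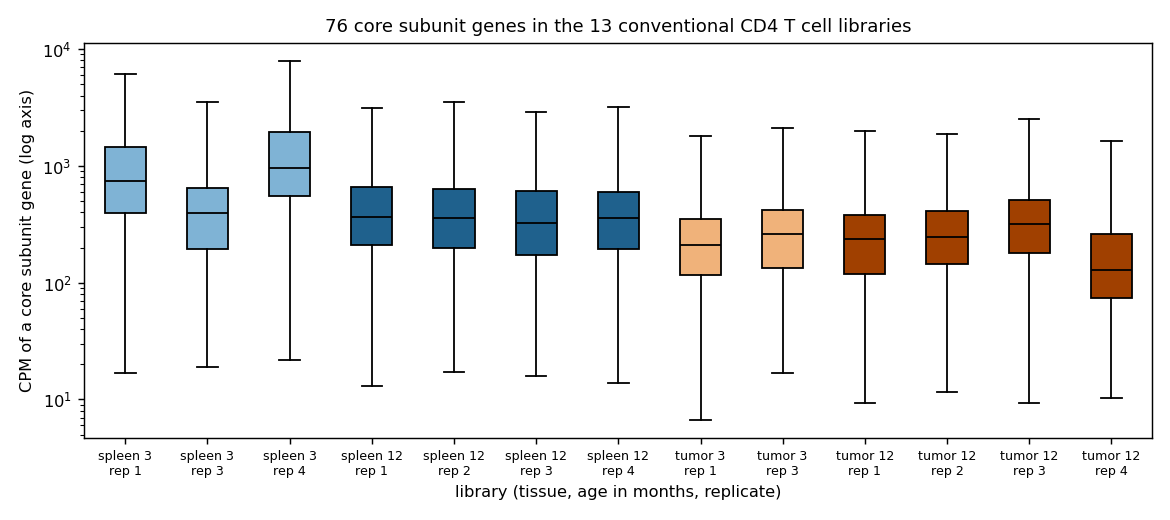
CPM (vertical axis, log axis) of the 76 core subunit genes in each of the 13 conventional CD4 T cell libraries (horizontal axis: tissue, age in months, replicate); boxes span the quartiles, the line is the median and whiskers reach the lowest and highest gene. Replicates 1 and 4 of the 3-month spleen stand highest, with medians of 745 and 967 CPM, and replicate 3, at 399 CPM, lies beside the 12-month spleen libraries (321 to 367 CPM).

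In tumor conventional CD4 T cells the same medians were 209 and 259 CPM at 3 months and 239, 247, 321 and 127 CPM at 12 months, with overlap. Between the ages edgeR and DESeq2 called 0 members, where 0.0311% of all genes passed edgeR's adjusted threshold. Only 1 member had an unadjusted edgeR p under 0.05. The age effects in tumor and spleen differed by a median of 1.23 in this type. Past edgeR's adjusted threshold were 0 members and 0.668% of all genes. DESeq2 called 9 members, and 73 had an unadjusted edgeR p under 0.05. Without the 2 splenic libraries above, 0 had an unadjusted p under 0.05 and the median was 0.19.

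In the other cell types edgeR and DESeq2 each called 0 members in every age comparison and in every difference of age effects. Of all genes, edgeR's adjusted threshold was passed by 0 in each for macrophages (spleen, tumor, difference) and by 1.02%, 0 and 0.143% for CD8 T cells. It was passed by 0.0489%, 0 and 0 for regulatory T cells and by 0.593%, 0 and 0 for dendritic cells. Unadjusted edgeR p-values under 0.05 were found for 0, 1 and 2 members in macrophages and 1, 3 and 0 in CD8 T cells. They were found for 1, 0 and 0 in regulatory T cells and for 17, 0 and 11 in dendritic cells. The shares of all genes use the adjusted threshold, so they are no background for these unadjusted counts. In splenic dendritic cells 83 of 85 members had a negative fold change (median -0.23). That spleen comparison includes both libraries whose title and age tag differ. With them left out, only replicate 1 remained at 3 months, and the median was -0.58. The size of this shift therefore depends on how these libraries are placed. In simulated counts, the splenic age test recovered 23% of genes changed 2-fold in macrophages, 19% in dendritic cells, 26% in conventional CD4 T cells, 72% in CD8 T cells and 68% in regulatory T cells. It recovered 93% to 100% of genes changed 4-fold in the 5 types, while most of those changed 2-fold were missed in the first 3. The recovery of an age change in the members themselves was not tested.

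Across the 74 libraries, once each group's mean was removed, the core genes rose and dropped together. The correlation of log2(CPM + 1) of a core gene with the mean of the other members had a median of 0.91, and 71 of 76 were at least 0.8 (0.89 as median without the 3-month splenic conventional CD4 T cells). Rpl24 (0.21), Rps2 (0.51), Rpl13a (0.68) and Rpl4 (0.75) were the loosest of the core. Rps27l had 0.79, Rps19bp1 0.49, Rpl7l1 0.46 and Rpl3l 0.01. These are descriptions, since genes of 1 library share its depth and handling.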

How the data were processed

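The authors deposited 1 table of raw counts, whole reads per gene for all 74 libraries. Per the submitters' processing notes, STAR 2.5.3, featureCounts and mm10 were used. Which annotation was counted, whether strand was used and how reads matching several places were treated is not given in the sources used here. Every value column was mapped to a sample by its title.

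Genes with low counts were removed with filterByExpr and libraries scaled by TMM. For each cell type, edgeR 4.0.16 (R 4.3.3, robust quasi-likelihood test) compared tumor with spleen over both ages, 12 with 3 months in each tissue, and the difference of the age effects, and the dendritic cell fits had a term for sex. The Benjamini-Hochberg adjustment ran over the whole set of genes tested, and 0.05 was the threshold. The fits were tested on simulated data. CPM were taken from the library totals. Coding sequence and shared 36-base stretches come from GENCODE gene models of mm10.

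The members and gene lists were chosen with earlier results of these data known. Named genes are, per comparison, up to 4 members with the highest and 4 with the lowest fold change past the threshold among those with at least 10 CPM, plus fixed core genes and all paralogs, and up to 3 genes of each further list by adjusted p; the text gives a selection, and some genes are not reported here. Same-numbered replicates deviated together (every correlation above 0.1, from 0.118 to 0.374 over 4 pairs) only in tumor regulatory T cells between ages. Single pairs elsewhere were higher, such as 0.452 for replicate 2 of tumor dendritic cells between ages.

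Alternatives were DESeq2 1.42.0, its size factors, scaling without the members or without TMM, no filter, the replicate block, single ages, counts summed with copies, and libraries left out. Those on single ages, copies, library totals, macrophage-rich libraries and differences between cell types were added after seeing the data.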

Additional observations from a re-analysis of the deposited data

Results flagged for a closer look

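In 165 checks of a group of 4 libraries, in which chance marks about 5%, 11 had 1 library far from the others. The ribosomal protein share of macrophage tumor replicate 3 at 12 months was 1.22%, against 0.919% to 0.958% in the other 3. Rplp0 was high in splenic macrophage replicate 4 at 12 months (1081 CPM against 670 to 701) and in tumor regulatory T cell replicate 4 at 12 months (1073 CPM against 661 to 670). Rpl12 was high in the latter library too (137 CPM against 78.6 to 87.6), and low in replicate 1 of splenic regulatory T cells at 12 months (231 CPM against 308 to 318) and at 3 months (284 CPM against 340 to 345).

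Rps3 was low in tumor CD8 T cell replicate 1 at 3 months (2179 CPM against 2637 to 2722). Rps27l was low in tumor conventional CD4 T cell replicate 4 at 12 months (22.1 CPM against 36.9 to 39.0). Rpl22l1 was high in splenic macrophage replicate 3 at 3 months (97.9 CPM against 36.6 to 38.9), in splenic CD8 T cell replicate 4 at 12 months (141 CPM against 120 to 123) and in splenic regulatory T cell replicate 2 at 3 months (82.4 CPM against 58.4 to 60.3).

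The tumor-against-spleen change differed between cell types in 1 edgeR fit of all libraries. Averaged over the 3 T cell types, it was below the mean of both myeloid types for 80 members, where 15.5% of all genes were lower. These means differed by -1.64 for Rpl12, -1.0 for Rplp0 and -0.95 for Rps27l on the log2 scale. The single types were not compared in this contrast. The change was lower in regulatory than in CD8 T cells for 16 members (5.66% of all genes). In dendritic cells it was higher than in macrophages for 3 (12.1% of all genes), among them Rpl3l, which was filtered out of the fits of dendritic cells alone.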

How the results depend on the processing

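The counts of members past edgeR's threshold moved as follows. Unless given above, the share of all genes called in the alternative fits is not reported here. Their counts, also those with libraries left out, therefore cannot be set against it. For dendritic cells, tumor against spleen (16 members), the count was 3 at 3 months only, 4 with the 2 libraries placed by their age tag, 4 without these 2, 19 with library totals without TMM (direction reversed), 32 with the replicate block and 29 without both macrophage-rich libraries. For macrophages (14) it was 3 at 3 months only and 45 without TMM. For conventional CD4 T cells it was 14 at 12 months only and 49 without splenic replicates 1 and 4 (from 78), with age in spleen 0 without them (from 67), and for the difference of age effects 9 by DESeq2 and 48 with no filter (from 0). The replicate block gave 1 member with age in tumor conventional CD4 T cells (from 0). Leaving out the 2 age-tag libraries left only replicate 1 at 3 months in splenic dendritic cells, and the median age change was -0.58. Regulatory minus CD8 T cells (16) gave 25 by DESeq2, 47 without TMM, 25 with the block and 36 without the splenic replicates 1 and 4. Dendritic cells minus macrophages (3) gave 7 by DESeq2, 5 with size factors, 7 with copies summed, 7 with the block, 6 with scaling without members and 7 without those replicates.

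Leaving out 1 library at a time gave 5 to 26 members for dendritic cells, 8 to 19 for macrophages, 67 to 79 for conventional CD4, 66 to 75 for CD8 and 77 to 78 for regulatory T cells (tumor against spleen), 2 to 79 for age in splenic conventional CD4 T cells and 0 to 72 for their difference of age effects. Leaving out 1 replicate number gave 73 to 81 (T cells minus myeloid), 0 to 56 and 0 to 4. For dendritic cells the count fell to 6, 7, 7, 5, 6 and 6 without splenic replicates 1 and 3 at 12 months, splenic 4 at 3 months, tumor 3 at 12 months and tumor 1 and 4 at 3 months, and reached 26 without splenic 4 at 12 months or tumor 2 at 3 months. For macrophages it was 8, 8 and 9 without tumor replicates 1, 2 and 4 at 12 months and 8 without tumor 4 at 3 months. The 72 came without splenic replicate 3 at 3 months, and 2 without tumor replicate 4 at 12 months.

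In dendritic cells Rpl3 (-0.23), Rpl10 (-0.0088) and Rps6 (-0.30) changed sign without TMM. Of the values of named genes, 1774 kept direction and side of the threshold, 109 lost and 43 gained a call and 3 reversed. By the rule of every correlation above 0.1, same-numbered replicates deviated together only in tumor regulatory T cells between ages. There the replicate block changed no call of a member. Such correlations cannot show which samples came from the same animal, and the labels do not say. Causes were not tested beyond what an alternative's own construction shows.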
